A study of Mus musculus with 4 samples.

Results

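The receptors described here are *Ctla4*, *Cd28*, *Icos*, *Pdcd1*, *Btla*, *Lag3* and *Havcr2*, the genes of the CD28 family and of the inhibitory checkpoint receptors that are transcribed in T cells. They were taken by symbol from the Ensembl identifiers of a table of read counts and make up 7 of its 47729 rows, and all 7 were among the 12536 genes with enough counts to be tested. The table holds 4 RNA-sequencing libraries of sorted mouse Treg cells, which were made to ask how the transferrin receptor TfR1 (gene *Tfrc*), the main route of iron uptake into cells, affects the Treg transcriptome. WT libraries (replicates 1 and 2) came from Tfrc +/+ Foxp3 YFP-Cre/+ mice and TfR1-deficient libraries (replicates 1 and 2) from mice of the genotype Tfrc fl/fl Foxp3 YFP-Cre/+, all on the C57BL/6 background. An age of 6 to 8 weeks is stated for all mice except hemizygous males with the floxed allele, and none is given for these libraries singly. Every mouse thus carried the same Cre allele, made from the *Foxp3* locus together with the fluorescent protein YFP, and in the floxed mice the deletion is limited to cells that have expressed *Foxp3*. The locus is on the X chromosome and the mice were heterozygous females, so random X inactivation leaves YFP+ Treg cells beside Treg cells without Cre, and the CD25+YFP+ CD4 T cells were sorted. The labels name the spleen as the tissue, whereas a legend of the study names spleens and lymph nodes, and the libraries are described as biological replicates.

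CD28 and ICOS are costimulatory receptors, which add to the signal of the T-cell receptor when they bind CD80 and CD86 or the ICOS ligand. CTLA-4 binds CD80 and CD86 more tightly than CD28 does, is made constitutively by Treg cells and removes these ligands from antigen-presenting cells. PD-1 and BTLA recruit phosphatases that dampen antigen and CD28 signalling, LAG-3 binds MHC class II and other ligands, and TIM-3 (gene *Havcr2*) is best known from effector and exhausted T cells and from myeloid cells.

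The count over the whole *Tfrc* gene was 50.8 and 54.1 CPM (counts scaled to the library's TMM-corrected total) in WT and 56.1 and 48.3 CPM in the pair labelled TfR1-deficient. It therefore did not separate the genotypes, a count per gene cannot show the loss of single exons, and every direction given here rests on the labels. Library totals were 10841939 to 17278448 counts. The first principal component of log2 CPM (62.6% of the variance) set WT replicate 1 and TfR1-deficient replicate 2 apart from the other libraries, and the second (23.1%) followed the genotype labels. The summed level of 14 macrophage markers was 1018.7 and 3192.4 CPM in WT replicate 1 and TfR1-deficient replicate 2, against 37.7 and 39.8 CPM in WT replicate 2 and TfR1-deficient replicate 1. Proliferation markers (6 genes) moved with the same libraries, at 630.5 and 540.7 CPM against 160.5 and 160.7 CPM. The 5 Treg markers were *Foxp3*, *Il2ra*, *Ikzf2*, *Cd3e* and *Cd4*. They summed to 3711.1 and 3333.5 CPM in WT and 2965.2 and 2615.9 CPM in the pair labelled TfR1-deficient. The 10 T-cell core genes, *Cd3e* again among them, summed to 9585.1 and 11139 CPM and to 10781.3 and 10125.5 CPM. Markers of dendritic, B, CD8 T and NK cells summed to at most 42.7 CPM in any library, and no listed marker was at 0 in all 4. In such bulk libraries fewer cells of a type and less RNA per cell cannot be told apart.

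*Cd28* (chromosome 1, 60746388 to 60773359), *Ctla4* (60909025 to 60915832) and *Icos* (60960773 to 61000322) lie in this order on the plus strand within 253.9 kb of GRCm38.p6. *Pdcd1* is farther along the same chromosome (94038305 to 94052553, minus strand), *Btla* is on chromosome 16 (45223705 to 45252895, plus strand), *Lag3* on chromosome 6 (124904359 to 124912434, minus strand) next to *Cd4*, and *Havcr2* on chromosome 11 (46454931 to 46481255, plus strand). *Btla* shares its chromosome with the targeted *Tfrc*. No exon of a member overlapped another gene in GENCODE vM1. The counting used a later annotation, in which 14889 rows of the table have identifiers above the highest of vM1, and overlap with those genes was not tested.

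RefSeq promoter sequences were matched for 4 of the 7 members. The 250 bases before the RefSeq transcript start of *Ctla4*, *Pdcd1* and *Btla* are shown because the levels of these genes separated the genotype groups. For *Btla* the start used is position 45224337, which lies 632 bases inside the gene span given above, so that its sequence is within the annotated gene, whereas for *Ctla4* and *Pdcd1* the start is that of the span. They are written 5′ to 3′ along the gene's strand, and capitals mark the letters ACGTG and GCGTG (cores of the HIF motif), GGAAA (the NFAT core), TGANTCA (AP-1) or TGTTTAC (forkhead) where they occur on either strand.
Ctla4, chr1:60908775-60909024, plus strand: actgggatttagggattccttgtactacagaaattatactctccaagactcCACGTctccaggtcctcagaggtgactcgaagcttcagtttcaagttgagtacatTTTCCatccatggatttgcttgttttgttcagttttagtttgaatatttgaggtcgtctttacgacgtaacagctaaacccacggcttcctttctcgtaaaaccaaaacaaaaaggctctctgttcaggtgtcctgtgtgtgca
Pdcd1, chr1:94052554-94052803, minus strand: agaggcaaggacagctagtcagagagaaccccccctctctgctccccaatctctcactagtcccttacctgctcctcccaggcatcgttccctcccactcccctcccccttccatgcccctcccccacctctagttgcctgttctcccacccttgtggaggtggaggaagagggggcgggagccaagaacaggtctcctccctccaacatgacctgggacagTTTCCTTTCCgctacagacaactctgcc
Btla, chr16:45224087-45224336, plus strand: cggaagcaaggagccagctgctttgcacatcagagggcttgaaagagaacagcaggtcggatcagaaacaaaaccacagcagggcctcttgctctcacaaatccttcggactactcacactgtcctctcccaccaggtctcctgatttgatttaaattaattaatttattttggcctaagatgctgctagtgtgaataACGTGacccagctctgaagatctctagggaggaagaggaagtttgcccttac

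Upstream of *Ctla4*, ACGTG occurred once, 199 bases before the start, and GGAAA once, 144 bases before it, both on the opposite strand, so that they read CACGT and TTTCC above. The *Pdcd1* sequence held GGAAA at 28 and 23 bases before the start, again on the opposite strand, and the *Btla* sequence held ACGTG 52 bases before the start used. In the *Havcr2* sequence, which is not shown, ACGTG and TGANTCA matched at 100 and 200 bases before the start. Across all 32851 promoter sequences of this length, 16.6% held ACGTG, 28.2% GCGTG, 55.6% GGAAA, 6.75% TGANTCA and 3.17% TGTTTAC. These are matches of letters and are not known binding sites in these cells.

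Per kilobase of exon, *Ctla4* was the most abundant of the 7 transcripts in every library. It stood at 175 and 183 CPM per kb in WT and 103 and 101 CPM per kb in the pair labelled TfR1-deficient, and the highest value of any other member in any library was 89.2 CPM per kb, for *Pdcd1* in WT replicate 1. In WT the mean levels then followed the order *Pdcd1* (71.0 CPM per kb), *Cd28* (55.7), *Icos* (49.7), *Btla* (41.4), *Lag3* (26.3) and *Havcr2* (0.946). From *Pdcd1* to *Lag3* each gene overlapped its neighbour in this order, with ranges of 52.9 to 89.2, 54.6 to 56.7, 40.2 to 59.2, 38.0 to 44.8 and 14.0 to 38.6 CPM per kb, so only the places of *Ctla4* and *Havcr2* were set apart by more than the spread. In the libraries labelled TfR1-deficient the order was *Ctla4* (102 CPM per kb), *Cd28* (47.4), *Pdcd1* (43.2), *Icos* (32.9), *Btla* (30.4), *Lag3* (16.0) and *Havcr2* (0.613), in which *Cd28* overlapped *Pdcd1* and *Icos* overlapped *Btla*. The lengths are those of all annotated exons together, which exceed that of any single transcript with fewer exons.

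All 7 members had a lower mean level with the TfR1-deficient label, and in 5 of them (*Ctla4*, *Cd28*, *Icos*, *Pdcd1* and *Btla*) the groups did not overlap, the 2 WT libraries being the higher ones. Over all tested genes 18.9% were separated in this direction and 16% in the other. The median log2 fold change of the members, TfR1-deficient against WT, was −0.65, against 0.01 over all tested genes. By edgeR's quasi-likelihood test, 1 of the 7, *Ctla4*, was lower with an unadjusted p under 0.05 and a log2 change of 0.5 or more, and 0 were higher. The same rule called 2.48% of all tested genes lower and 1.6% higher. After Benjamini-Hochberg adjustment over all tested genes 0 of the 7 members were called by edgeR, as were 0% of all genes, although 655 genes had an unadjusted p under 0.05. The lowest adjusted p of any gene was 0.266, and the common biological coefficient of variation was 0.323. DESeq2, run on the same genes, called 3 members lower at the unadjusted threshold (*Ctla4*, *Icos* and *Pdcd1*, against 2.45% of all genes) and 1 at the adjusted threshold (*Ctla4*, against 0.295%). *Ctla4*, *Pdcd1* and *Icos* are genes that the study itself singled out on these libraries, so their direction is not independent evidence.

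**Figure D1:**
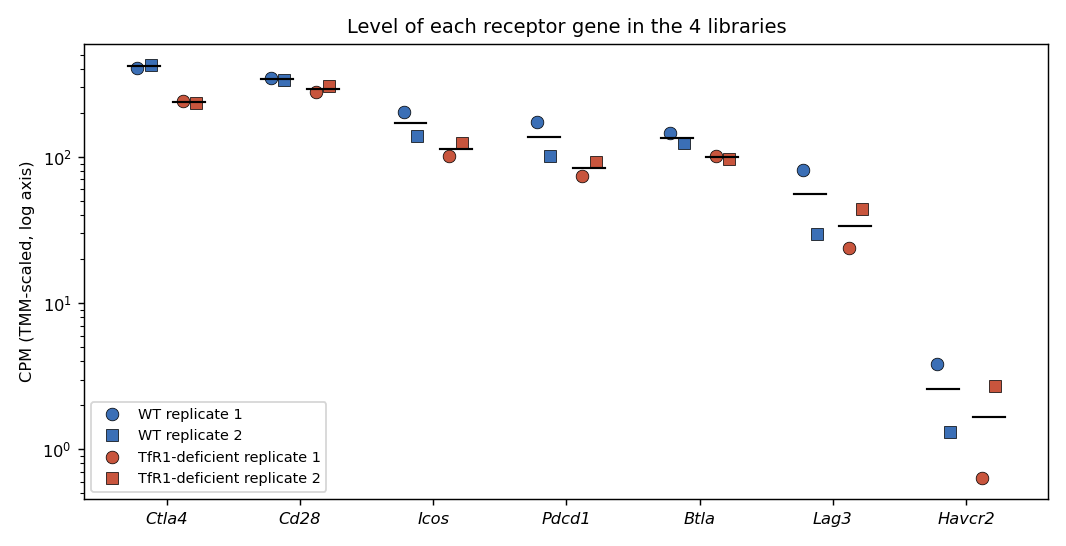
Level of each receptor gene in each library, in TMM-scaled CPM on a log axis, with 1 point per library and the mean of each group as a bar. The WT and TfR1-deficient points are separate for *Ctla4*, *Cd28*, *Icos*, *Pdcd1* and *Btla* and overlap for *Lag3* and *Havcr2*.

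*Ctla4* showed the most even difference. It was at 407 and 427 CPM in WT (mean 417 ± 14.2, SD, n = 2) and at 241 and 235 CPM in the pair labelled TfR1-deficient (238 ± 4.23, SD, n = 2). The deficient libraries held 57.1% of the WT level, and the gap between the groups was many times the spread within either. Its log2 fold change was −0.81 (SE 0.13, 95% confidence interval −1.14 to −0.48), with an unadjusted p = 0.00145, rank 13 of 12536 genes, and an adjusted p = 0.911 in the quasi-likelihood test of edgeR after Benjamini-Hochberg adjustment. DESeq2 gave −0.80 with an adjusted p = 0.000636. Leaving out any 1 library moved the value only between −0.83 and −0.77.

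*Cd28*, the costimulatory counterpart of CTLA-4, differed less. Its level was 347 and 334 CPM in WT and 277 and 303 CPM in the pair labelled TfR1-deficient, which is 85.2% of WT. The groups did not overlap, but the log2 fold change of −0.23 (SE 0.14, interval −0.57 to 0.11, edgeR unadjusted p = 0.147) did not pass the test.

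*Icos*, the second costimulatory receptor of the locus and a marker of activated Treg cells, was at 203 and 138 CPM in WT and 101 and 125 CPM with the TfR1-deficient label. WT replicate 1 stood well above the remaining 3 libraries. The log2 fold change was −0.59 (SE 0.23, interval −1.19 to 0.01, edgeR unadjusted p = 0.0516). It was −0.28 without WT replicate 1, and it passed the unadjusted threshold without WT replicate 2 (−0.84) or without TfR1-deficient replicate 2 (−0.75).

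*Pdcd1*, which encodes PD-1, followed the same order of libraries. It was at 172 and 102 CPM in WT and 73.9 and 92.9 CPM in the pair labelled TfR1-deficient, with a log2 fold change of −0.72 (SE 0.29, interval −1.45 to 0.01, edgeR unadjusted p = 0.0529). WT replicate 2 and TfR1-deficient replicate 2 were close to each other. The value was −0.28 without WT replicate 1, and it passed the unadjusted threshold without WT replicate 2 (−1.04) or without TfR1-deficient replicate 2 (−0.89).

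*Btla*, the receptor for HVEM, was at 146 and 124 CPM in WT and 101 and 97.4 CPM in the pair labelled TfR1-deficient, or 73.2% of WT. The groups did not overlap. The log2 fold change of −0.45 (SE 0.15, interval −0.83 to −0.07) had an unadjusted p = 0.0282 in edgeR and an adjusted p = 0.911 in its quasi-likelihood test with Benjamini-Hochberg adjustment, and its size was under the minimum of 0.5 used for a call, which it exceeded without WT replicate 2 (−0.56). The edgeR unadjusted p was 0.0842 with scaling by T-cell core genes (−0.37), 0.146 without WT replicate 1 (−0.32), 0.0863 without TfR1-deficient replicate 1 (−0.47) and 0.121 without TfR1-deficient replicate 2 (−0.43).

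*Lag3* and *Havcr2* did not separate the genotypes. *Lag3* was at 81.4 and 29.6 CPM in WT and 23.8 and 43.7 CPM in the pair labelled TfR1-deficient, with a log2 fold change of −0.72 (SE 0.54, interval −2.10 to 0.66). The mean difference rested on WT replicate 1, without which the value was 0.20, and without WT replicate 2 it was −1.27 and passed the unadjusted threshold. *Havcr2* was near the lower end of what was tested, with 47 and 14 counts (3.85 and 1.31 CPM) in WT and 11 and 37 counts (0.634 and 2.7 CPM) in the pair labelled TfR1-deficient, and a log2 fold change of −0.65 (SE 0.89, interval −2.91 to 1.62). Like *Lag3*, it was highest in WT replicate 1 and TfR1-deficient replicate 2, the libraries with the most RNA of both macrophage and proliferation markers. The part of either in these levels was not tested. The value of *Havcr2* turned to 0.35 without WT replicate 1 and to 0.06 without TfR1-deficient replicate 1. Both intervals span 0 and also hold decreases larger than the one estimated for *Ctla4*.

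**Figure D2:**
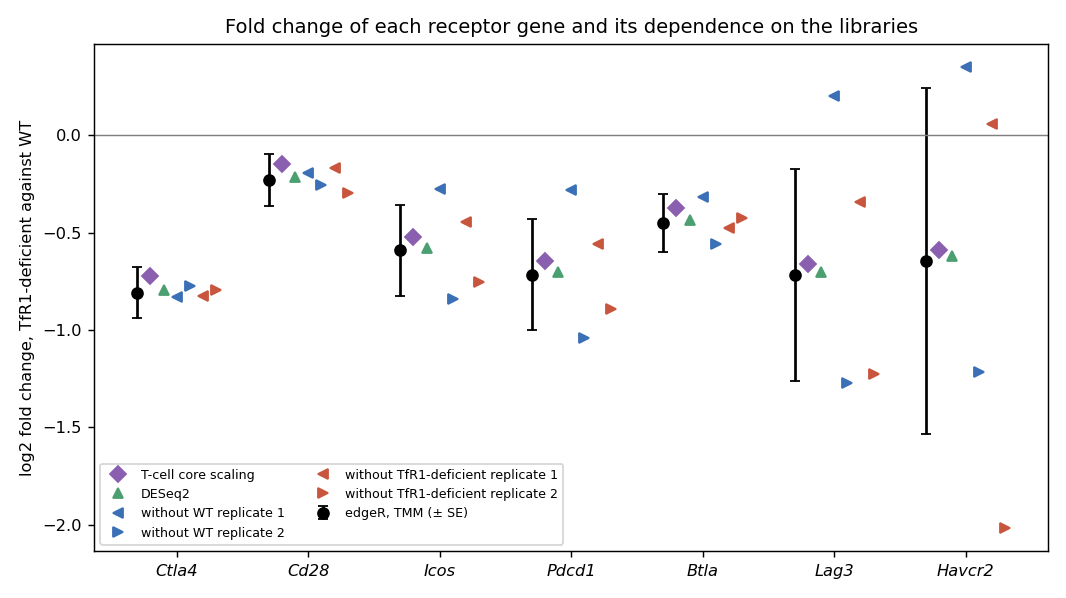
Log2 fold change of each receptor gene (TfR1-deficient against WT) from edgeR with its standard error (black), beside the values with T-cell core scaling, with DESeq2 and with each library in turn left out. The points of *Ctla4* lie close together, and the values without single libraries are spread over both signs for *Lag3* and *Havcr2*.

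Because macrophage RNA was unequal between the replicates, the genotypes were also compared within the 2 libraries where it was high and within the 2 where it was low. The high libraries were WT replicate 1 (1018.7 CPM of macrophage markers) and TfR1-deficient replicate 2 (3192.4 CPM), so this RNA was not equal within them. The comparison was chosen after the values were seen. All 7 members were lower with the TfR1-deficient label in both pairs, as were 31% of all tested genes. For *Ctla4*, *Cd28*, *Icos*, *Pdcd1* and *Btla*, whose groups did not overlap, this outcome was fixed in advance. Only *Lag3* and *Havcr2* could have differed in direction. For *Ctla4* the difference in log2 CPM was −0.79 within the high libraries and −0.83 within the low ones. *Cd28* (−0.19 and −0.27) was likewise close in both, and *Icos* (−0.70 and −0.45), *Btla* (−0.59 and −0.30), *Pdcd1* (−0.89 and −0.46) and *Lag3* (−0.89 and −0.31) had their larger differences within the high libraries. *Havcr2* (−0.49 and −0.90) had its larger difference within the low ones. Each of these values compares 1 library with 1 and has no test.

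**Figure D3:**
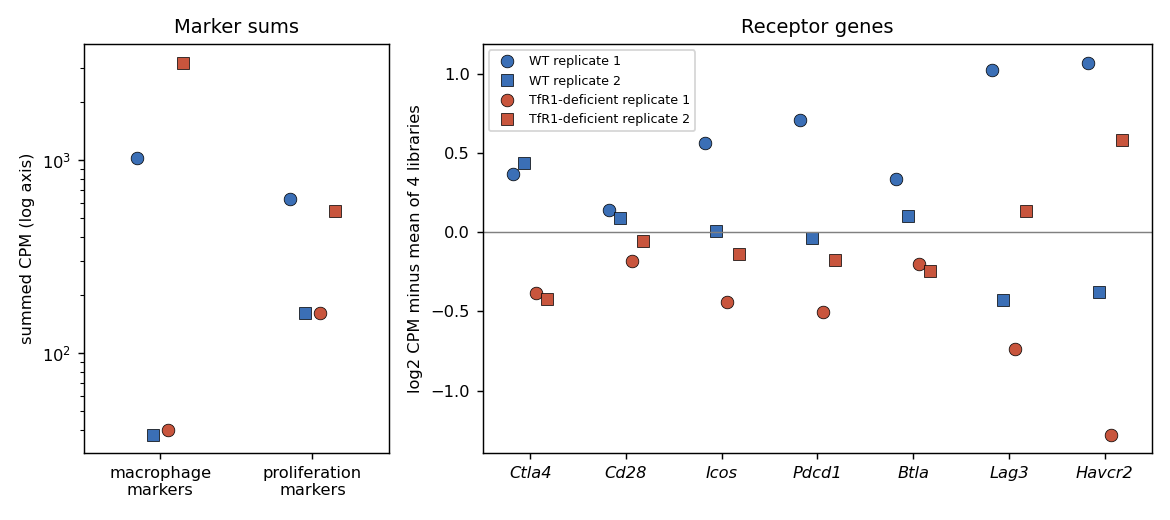
Left, summed CPM of the macrophage and proliferation markers in each library on a log axis, and right, log2 CPM of each receptor gene minus its mean over the 4 libraries, with 1 point per library. *Ctla4* splits the libraries by genotype label, whereas *Icos* and *Pdcd1* are highest in WT replicate 1. *Lag3* and *Havcr2* are higher in WT replicate 1 and TfR1-deficient replicate 2 than in the other libraries.

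A ratio of 2 genes within a library does not depend on how the library was scaled, and *Cd28* was taken as the reference. The log2 ratio of *Ctla4* to *Cd28* counts was 0.23 and 0.35 in WT and −0.20 and −0.37 in the libraries labelled TfR1-deficient, a difference of −0.58. *Ctla4* was thus counted more often than *Cd28* in both WT libraries and less often in both others. For *Icos* the ratios were −0.77 and −1.27 against −1.45 and −1.28 (difference −0.34), and for *Btla* they were −1.25 and −1.42 against −1.46 and −1.64 (difference −0.21), again without overlap but with a narrow gap. *Pdcd1* gave −1.01 and −1.71 against −1.91 and −1.70 (difference −0.44), and *Lag3* and *Havcr2* differed by −0.37 and −0.46 with overlapping libraries. Of the 6 ratios, 3 had an exact permutation p = 0.333 (two-sided), the smallest that 2 against 2 libraries allow, so this test could not pass a threshold of 0.05, and the adjusted p of the *Ctla4* ratio over the 6 was 0.666 in this exact test.

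**Figure D4:**
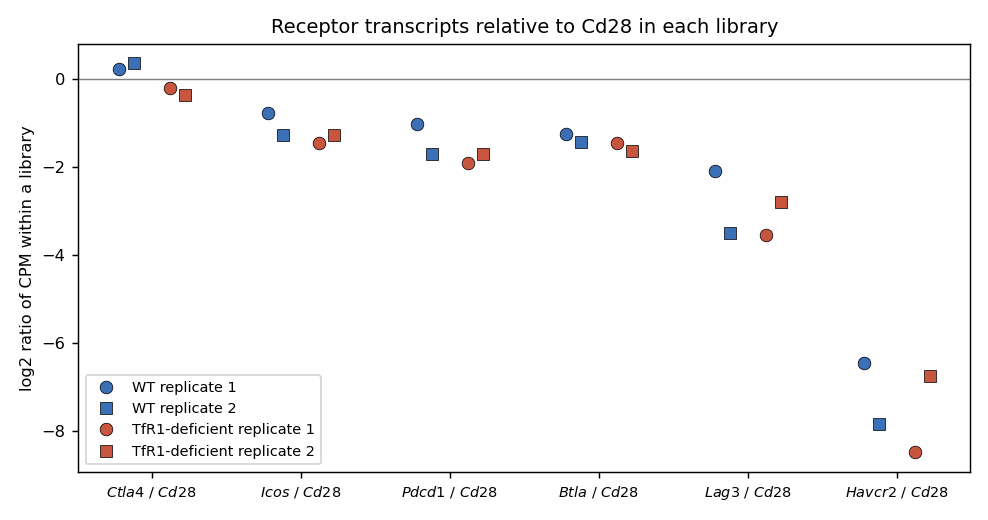
Log2 ratio of each receptor gene to *Cd28* within each library, with 1 point per library. The *Ctla4* points lie above 0 in both WT libraries and below 0 in both TfR1-deficient libraries, while the points of *Pdcd1*, *Lag3* and *Havcr2* overlap.

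*Foxp3*, the lineage factor of Treg cells, was itself at 194 and 130 CPM in WT and 122 and 114 CPM in the pair labelled TfR1-deficient (log2 fold change −0.46, SE 0.22, edgeR unadjusted p = 0.0918), so ratios to it were added after the values were seen. Relative to *Foxp3*, *Ctla4* stood at 1.07 and 1.71 on the log2 scale in WT and at 0.99 and 1.04 in the libraries labelled TfR1-deficient (difference −0.38, exact permutation p = 0.333, adjusted p = 1 over 7 ratios). Here the lower WT library and the higher deficient library nearly met. *Icos* (difference −0.14), *Pdcd1* (−0.24), *Btla* (−0.01), *Lag3* (−0.17) and *Havcr2* (−0.26) had smaller differences relative to *Foxp3* than in CPM, and that of *Cd28* was 0.20. *Foxp3* and the Treg marker sum were both lower with the TfR1-deficient label, and the part of this in the receptor levels was not tested. That sum also holds genes not particular to Treg cells, *Cd3e* (1090 and 904 CPM against 714 and 765 CPM) and *Cd4* (800 and 617 CPM against 486 and 562 CPM). *Ikzf2*, another of its genes, overlapped between the groups (477 and 572 CPM against 556 and 322 CPM). Scaling by 10 T-cell core genes in place of TMM, which raised the median of all genes by 0.083, left *Ctla4* at −0.73 (edgeR unadjusted p = 0.00269), *Pdcd1* at −0.65, *Icos* at −0.52, *Btla* at −0.37, *Cd28* at −0.15, *Lag3* at −0.66 and *Havcr2* at −0.59.

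The nearest tested genes with a symbol on each side of the *Cd28*, *Ctla4* and *Icos* cluster did not show a common direction. Genes under the count filter were passed over, so these are not always the adjacent genes. Upstream, *Abi2* had a log2 fold change of −0.52 (SE 0.23, edgeR unadjusted p = 0.0718), *Raph1* of −0.03 and *Gm11575* of 0.14. Downstream, *Nrp2*, a semaphorin co-receptor 1703 kb away, was at 2.05 and 1.97 CPM in WT and 4.15 and 4.16 CPM in the pair labelled TfR1-deficient (1.05, SE 0.38, edgeR unadjusted p = 0.0403), opposite in sign to the receptors. *Ino80d* (−0.04) and *Ino80dos* (−0.39) completed the tested neighbours.

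The ligands of the receptors were counted in the same sorted cells. Of 10 listed, 9 were tested and *Fgl1* had 0 counts. By the unadjusted rule 1 was lower and 0 were higher, against 2.48% and 1.6% of all tested genes. The median log2 fold change of the ligands was −0.16. The gene called was *Cd274*, which encodes PD-L1, at 40.5 and 30.8 CPM in WT and 22.3 and 21.7 CPM in the pair labelled TfR1-deficient (−0.70, SE 0.22, edgeR unadjusted p = 0.0234). It did not pass without WT replicate 1 (−0.48), TfR1-deficient replicate 1 (−0.72) or TfR1-deficient replicate 2 (−0.68). *Pdcd1lg2* (PD-L2) was at 16.7 and 9.56 CPM against 5.3 and 8.4 CPM (−0.94, SE 0.42, unadjusted p = 0.0736 in edgeR). *Cd86* (73.2 and 50.3 CPM in WT, 46.3 and 136 CPM in the others) and *Lgals3* (19.1 and 4.97 CPM, 6.57 and 36.3 CPM) were highest in TfR1-deficient replicate 2, the library with the most macrophage RNA, and the part of that RNA in their levels was not tested.

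Among other inhibitory receptors, 9 of 11 were tested, and the median log2 fold change was −0.29. Of these, 2 were called lower (*Tigit* and *Cd96*) and 0 higher, against 2.48% and 1.6% of all tested genes. *Tigit*, which competes with the activating receptor CD226 for CD155, was at 92 and 84.3 CPM in WT and 55 and 45 CPM in the pair labelled TfR1-deficient (−0.82, SE 0.17, edgeR unadjusted p = 0.00394). *Cd96*, another receptor for CD155, was at 471 and 541 CPM against 252 and 239 CPM (−1.04, SE 0.15, edgeR unadjusted p = 0.000729). Both passed the rule without each library in turn, as did *Ctla4*. The chromosomal positions of these other receptors were not looked up, so linkage to the targeted *Tfrc* was not tested. In 6 of the 9 genes the groups did not overlap and WT was higher, as in 18.9% of all tested genes. *Cd5* (766 and 713 CPM against 578 and 640 CPM) and *Vsir* (243 and 263 CPM against 201 and 209 CPM) were among them. So was *Cd200* (211 and 205 CPM against 191 and 163 CPM), which encodes the ligand of the CD200 receptor and was listed with the receptors. *Lair1*, which is also expressed by myeloid cells, was at 7.53 and 2.81 CPM against 2.13 and 18 CPM.

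Genes that act downstream of the receptors were divided in direction. Among all tested genes, the share called lower was 2.48% and the share called higher 1.6%. Of 16 genes of costimulatory signalling, 1 was called lower, 0 higher, 7 had a negative and 9 a positive log2 fold change, and the median was 0.02. The gene called was *Grap2*, an adaptor that binds phosphorylated CD28, at 88.1 and 86.7 CPM in WT and 59.9 and 61.3 CPM in the pair labelled TfR1-deficient (−0.53, SE 0.13, edgeR unadjusted p = 0.00957), and it did not pass without TfR1-deficient replicate 1 (−0.51) or replicate 2 (−0.55). *Pik3cd*, the catalytic PI3-kinase subunit of leukocytes, was at 611 and 604 CPM against 485 and 462 CPM (−0.36, edgeR unadjusted p = 0.0375), under the minimum size. Of 9 genes of inhibitory signalling 1 was called lower and 0 higher (median −0.06). That gene was *Inpp5d*, the lipid phosphatase SHIP-1, at 234 and 219 CPM against 174 and 130 CPM (−0.57, SE 0.19, edgeR unadjusted p = 0.0261), and it did not pass without WT replicate 1 (−0.52), WT replicate 2 (−0.62) or TfR1-deficient replicate 2 (−0.38). The phosphatase gene *Ptpn6* was at 387 and 392 CPM in WT and 450 and 453 CPM in the others (0.21, unadjusted p = 0.155 in edgeR).

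The level of CTLA-4 protein also depends on its traffic to and from the cell surface. Of the 6 tested genes of this list 0 were called by edgeR in either direction at the unadjusted threshold, and their median log2 fold change was 0.06. *Lrba*, which protects CTLA-4 from lysosomal degradation, was at 13.3 and 13.8 CPM in WT and 13.6 and 10.5 CPM in the pair labelled TfR1-deficient, and *Trat1*, which carries CTLA-4 to the surface, at 153 and 145 CPM against 164 and 206 CPM. Among 5 genes of receptor shedding and of mRNA decay, 1 was called lower and 1 higher (median −0.05), against 2.48% and 1.6% of all tested genes. *Zc3h12a*, which encodes the ribonuclease Regnase-1, was at 81 and 70.6 CPM in WT and 45.6 and 51 CPM in the others (−0.65, SE 0.16, edgeR unadjusted p = 0.00833), and did not pass without TfR1-deficient replicate 1 (−0.57). *Rc3h2*, which encodes the RNA-binding protein Roquin-2, was at 17.7 and 21.7 CPM against 34 and 26.4 CPM (0.62, SE 0.24, edgeR unadjusted p = 0.0486), and did not pass without WT replicate 1 (0.49), WT replicate 2 (0.77) or TfR1-deficient replicate 1 (0.42).

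The transcription factors listed are known regulators of Treg or activated T cells. Of 18, 16 had a negative log2 fold change, 11 had both libraries labelled TfR1-deficient under the WT pair, 3 were called lower and 0 higher, and the median was −0.46. Of all 12536 tested genes 6135 had a negative value, 18.9% lay under the WT pair, 2.48% were called lower and 1.6% higher. *Maf*, a factor of effector Treg cells and one of the genes the study turned on, was at 62 and 68.4 CPM in WT and 28.4 and 38.2 CPM in the pair labelled TfR1-deficient (−0.97, SE 0.20, edgeR unadjusted p = 0.00441). *Nr4a3*, which is induced by antigen receptor signals, was at 26.9 and 27.7 CPM against 15.3 and 20 CPM (−0.63, SE 0.23, edgeR unadjusted p = 0.0403), and did not pass without WT replicate 1 (−0.64), WT replicate 2 (−0.61) or TfR1-deficient replicate 1 (−0.45). *Irf4*, which is needed for effector Treg cells, was at 61.4 and 29.9 CPM against 21.3 and 25.2 CPM (−0.98, SE 0.37, edgeR unadjusted p = 0.0453), and did not pass without WT replicate 1 (−0.35) or TfR1-deficient replicate 1 (−0.86). *Maf* passed without each library in turn. *Nfatc1*, the NFAT member induced by calcium signals, was at 303 and 293 CPM against 216 and 216 CPM (−0.46, edgeR unadjusted p = 0.015), under the minimum size. Related listed genes were divided. *Nr4a1* (889 and 1570 CPM against 1300 and 1080 CPM, −0.05) and *Nfatc2* (56 and 39.3 CPM against 38.7 and 41.7 CPM, −0.25) overlapped between the groups. *Nr4a2* (15.5 and 23 CPM against 12.4 and 11.3 CPM, −0.70) was lower without overlap but did not pass. The HIF subunit genes *Hif1a* (154 and 108 CPM against 98.3 and 96.1 CPM, −0.43) and *Epas1* (2.54 and 1.87 CPM against 1.21 and 1.24 CPM, −0.85) did not pass. With T-cell core scaling *Nr4a3* (−0.55), *Irf4* (−0.91), *Grap2* (−0.45), *Inpp5d* (−0.50) and *Cd274* (−0.62) no longer met the rule.

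**Figure D5:**
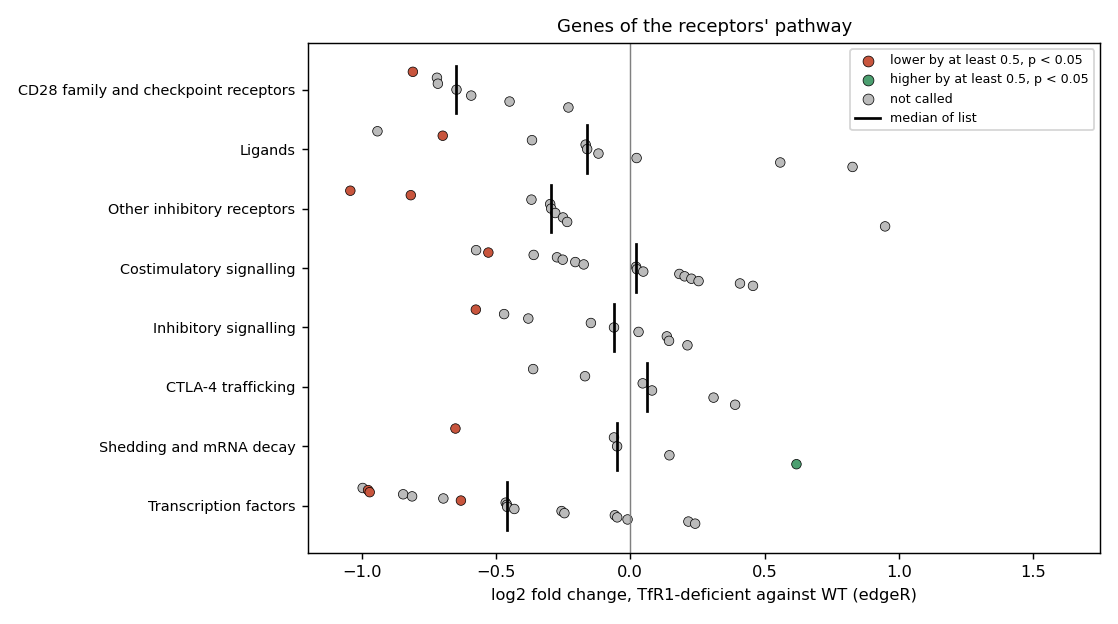
Log2 fold change (TfR1-deficient against WT, edgeR) of every tested gene of the receptor list and of 7 lists of its pathway, with 1 point per gene, a bar at each list's median, and colours for genes past the unadjusted rule. The medians lie at −0.65 for the receptors, −0.46 for the transcription factors and 0.02 for costimulatory signalling.

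The members also differed in which libraries they followed, measured as the Euclidean distance between mean-centred log2 CPM over the 4 libraries. *Icos* and *Pdcd1* were the closest pair (0.175), then *Cd28* and *Btla* (0.277), and *Ctla4* and *Havcr2* were the farthest apart (1.73). Over all tested genes, those nearest to *Ctla4* were *Zfp526* (0.0746), *Ttc21b* (0.078) and *Matn2* (0.0857), and the nearest to *Lag3* was *Tnfsf14* (0.0931), which encodes LIGHT, a ligand of HVEM. *Kif3c* (0.0133) was nearest to *Cd28*, *Gcn1l1* (0.048) to *Icos*, *Trip10* (0.0639) to *Pdcd1*, *Agfg2* (0.0258) to *Btla* and *Tmem159* (0.282) to *Havcr2*. With 4 libraries, many genes share a pattern with each member, and these distances are a description.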

How the data were processed

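Transcripts of sorted Treg cells were sequenced in 4 libraries, 2 per genotype, grouped by the genotype and replicate number in the labels. The authors deposited whole-number read counts per Ensembl gene, neither normalized nor pooled. The submitters' processing notes name Trim Galore 0.6.7, STAR 2.7.9a, featureCounts and mm10, whereas the study's methods name STAR with mm9 and DESeq. The strand setting and annotation release are not given in the sources used here. Symbols and exon lengths came from GENCODE vM1 (32799 identifiers matched, and 0.907% of counts had no symbol), and positions and promoters from RefSeq on GRCm38.p6.

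In R 4.3.3, edgeR 4.0.16 was used to filter genes (filterByExpr), scale libraries (TMM) and fit genotype alone in its quasi-likelihood model, with p-values adjusted by Benjamini-Hochberg over all tested genes, a threshold of 0.05 and a minimum log2 change of 0.5. The standard error is the fold change divided by the root of the F statistic, and log2 CPM used a prior count of 2. DESeq2 1.42.0, other scalings, count filters, minimum changes and prior counts, a block for the replicate number and the omission of each library were alternatives. The fits were run on simulated counts, drawn independently for each gene, as a check of the code. Those counts held no pattern shared by many genes across libraries, such as that of the first principal component. Replicates differed beyond counting noise (chi-square per degree of freedom 31.1 between the WT and 51 between the TfR1-deficient libraries) and were counted as separate samples. Counting error is small beside this spread except for genes such as *Havcr2*.

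Named genes are the 7 members, *Tfrc*, *Foxp3*, pathway genes past the unadjusted rule, genes beside the cluster and the 3 nearest by pattern, of which not all are printed. Others (*Pdcd1lg2*, *Cd86*, *Lgals3*, *Cd5*, *Vsir*, *Cd200*, *Lair1*, *Pik3cd*, *Ptpn6*, *Lrba*, *Trat1*, *Nfatc1*, *Nfatc2*, *Nr4a1*, *Nr4a2*, *Hif1a*, *Epas1*) were chosen after their values were seen. Members, lists and alternatives were chosen with earlier results of these data known.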

Additional observations from a re-analysis of the deposited data

How the results depend on the processing

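Of the member fold changes recomputed under the other settings listed above, 63 kept the direction and side of the unadjusted threshold, 11 passed it newly and 3 changed sign. *Ctla4* passed it under each of these settings, although not with a minimum change of 1. *Icos* and *Pdcd1* passed with DESeq2 (−0.58 and −0.70) and with every gene of at least 1 count (−0.58 and −0.70), and *Lag3* did with the latter filter (−0.70). Under that filter standard errors hardly differed between well-counted members, at 0.193 for *Ctla4*, 0.193 for *Icos* and 0.194 for *Pdcd1*. That of *Lag3* fell from 0.54 in the main fit to 0.23, although its libraries overlapped. Passes under this filter thus reflect little of each gene's own spread.

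Members called lower at the unadjusted threshold were 3 with DESeq2, 4 with at least 1 count, 2 with no minimum change and 0 with a minimum of 1. At the adjusted threshold they were 1 with DESeq2 and 2 with at least 1 count. Over all genes, the unadjusted calls were 200 lower and 308 higher with T-cell core scaling, 104 and 91 with a minimum of 1, and 419 and 236 with no minimum change. They were 445 and 650 with at least 1 count, where 22368 genes were tested in place of 12536. Adjusted calls were 37 lower and 7 higher with DESeq2, and 95 and 167 with at least 1 count.

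Without each library in turn, fold changes ranged from −0.84 to −0.28 for *Icos*, −1.04 to −0.28 for *Pdcd1*, −0.56 to −0.32 for *Btla*, −0.30 to −0.17 for *Cd28*, −1.27 to 0.20 for *Lag3* and −2.02 to 0.35 for *Havcr2* (0.06 without TfR1-deficient replicate 1). Members called lower were 1 to 5 (5 without WT replicate 2), and all genes 140 to 372 lower and 151 to 268 higher. Against *Cd28*, the differences ranged from −0.59 to −0.09 for *Icos*, −0.79 to −0.10 for *Pdcd1*, −0.30 to −0.12 for *Btla*, −1.07 to 0.33 for *Lag3* (0.33 without WT replicate 1), −1.33 to 0.41 for *Havcr2* and −0.66 to −0.50 for *Ctla4*. Calls in the lists ranged from 0 to 2 lower and 0 to 1 higher for ligands, 0 to 1 higher for other inhibitory receptors and for CTLA-4 trafficking, 0 to 1 lower for costimulatory signalling, 0 to 2 lower for inhibitory signalling, 0 to 1 lower and 0 to 1 higher for shedding and decay, and 2 to 4 lower for transcription factors.

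Lower calls fell to 0 for ligands, costimulatory and inhibitory signalling and to 1 for transcription factors with T-cell core scaling, where 1 costimulatory gene was higher. With total library size alone they were 0 for costimulatory signalling and 1 for transcription factors. With at least 1 count, ligands had 2 lower and 2 higher, other inhibitory receptors 1 higher and costimulatory signalling 2 lower.

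The labels give both genotypes replicate numbers 1 and 2, but same-numbered libraries did not deviate together (correlation −0.609). With the replicate number as a block, 141 genes were lower and 70 higher at the unadjusted threshold, *Ctla4* was the 1 member called (−0.81, edgeR unadjusted p = 0.0167), *Btla* had an edgeR unadjusted p = 0.101, and calls were 0 lower for ligands, costimulatory and inhibitory signalling, 0 higher for shedding and decay and 1 lower for transcription factors. With the crossed pairing as a block, added after seeing the data, the counts were 519 lower and 596 higher unadjusted, 210 and 150 adjusted, 4 members lower unadjusted and 3 adjusted, 2 ligands lower and 1 higher, and 2 costimulatory genes lower. The cause of these differences was not tested. With 2 libraries per genotype, p-values rest on few degrees of freedom, and *Havcr2*, at 11 to 47 counts, is limited by depth as well.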
